A study of Mus musculus with 2 samples.

Results

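The genes described here belong to the NRF2 antioxidant programme and to glutathione synthesis, and were followed through the gated cells of a NAPH and a Control library. They are Gclc, Gclm, Slc7a11, Gsr, Txnrd1, Srxn1, Nqo1, Hmox1, G6pdx and Me1. They were taken by name, without reference to their values, and are 10 of the 28692 genes in the count tables. All 10 symbols were found once.

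The cells came from lungs of adult C57BL/6 mice and were sorted on Epcam, a surface adhesion molecule of epithelium. The NAPH library was made after an airway injury that the labels give only as NAPH, and the Control library carries no other description. Both share strain and sort. Neither dose nor time after injury nor how many animals each library holds is given in the sources used here. RNA was counted in single cells as unique molecular identifiers (UMIs), tags that mark each captured RNA molecule, with a droplet-based 3' kit.

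Cells were gated on marker RNA. Alveolar type 2 (AT2) cells, which make surfactant and renew the alveolar lining, had at least 500 UMIs of Sftpc per 10000 UMIs. They were divided by Lrg1 per 10000 UMIs into Lrg1-low (below 5), Lrg1-intermediate (5 to below 20) and Lrg1-high (at least 20) cells. Secretory cells of the airway had at least 1000 UMIs of Scgb1a1 per 10000, and ciliated cells had at least 10 of Foxj1, Ccdc153 and Tmem212 together. Myeloid cells had at least 2 UMIs of Ptprc, Coro1a and Cd52 and met none of the other rules.

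NRF2, encoded by Nfe2l2, is a transcription factor that is held and degraded through KEAP1 in unstressed cells and accumulates in the nucleus when oxidants or electrophiles modify KEAP1. It binds antioxidant response elements together with small MAF proteins and drives genes that make glutathione, reduce disulfides and quinones, and supply NADPH. Glutathione is the thiol tripeptide that conjugates reactive metabolites, and in rodent airways it is known for its part in limiting damage by bioactivated xenobiotics.

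Promoters of 4 of the genes are shown because the set is grouped by the factor that can bind such elements. RefSeq promoter windows (GRCm38.p6) were found for 7 of the 10 genes, all but Gclc, Gsr and Hmox1, in 10 windows. The antioxidant response element core TGACNNNGC was searched on both strands, from 250 bases before to 50 bases after the start. It was found for 5 of these 7 genes (Gclm, Me1, Txnrd1, G6pdx and Srxn1). By window, it was found in 5 of their 10 windows and in 12.4% of all 32851 windows of 27025 genes. The AP-1 letters TGACTCA were found for 2 genes, Srxn1 and Me1, in 2 of the 10 windows and in 5.20% of all windows. The Me1 match lies inside its antioxidant element match. The amino acid response letters TGATGNAA are the core of a site that can bind ATF4. They were found for Slc7a11 alone, at 2 places in 1 of the 10 windows, and in 3.97% of all windows. No match was found for Nqo1 in its window, which says only that these letters are not in it. The 4 windows below run from 150 bases before the start to 10 bases after it, 5′ to 3′ on the gene's own strand, with the matched letters in capitals. The capitals mark the antioxidant element in Gclm and Me1 (in Me1 also the AP-1 letters), the AP-1 letters in Srxn1, and the amino acid response letters in Slc7a11. A capital run may be the reverse complement of the letters searched.
Gclm, chr3:122245407-122245566, plus strand: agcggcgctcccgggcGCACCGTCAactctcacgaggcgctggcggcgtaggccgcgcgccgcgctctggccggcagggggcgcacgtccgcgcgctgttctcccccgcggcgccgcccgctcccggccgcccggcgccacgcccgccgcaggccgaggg
Me1, chr9:86695905-86696064, minus strand: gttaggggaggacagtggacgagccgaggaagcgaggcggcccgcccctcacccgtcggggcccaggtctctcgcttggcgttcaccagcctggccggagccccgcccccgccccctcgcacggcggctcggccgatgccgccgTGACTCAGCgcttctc
Srxn1, chr2:152105374-152105533, plus strand: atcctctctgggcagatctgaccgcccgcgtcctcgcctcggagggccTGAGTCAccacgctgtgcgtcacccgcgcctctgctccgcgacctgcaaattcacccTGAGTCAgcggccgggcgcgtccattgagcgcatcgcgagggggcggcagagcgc
Slc7a11, chr3:50443604-50443763, minus strand: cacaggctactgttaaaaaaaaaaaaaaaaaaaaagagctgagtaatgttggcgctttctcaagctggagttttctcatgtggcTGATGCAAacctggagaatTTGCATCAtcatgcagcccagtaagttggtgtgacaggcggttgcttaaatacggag

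After filters and removal of doublets, 3572 NAPH and 3211 Control cells remained, and the libraries shared 14 cell barcodes. The NAPH library held 2515 AT2 cells (764 Lrg1-low, 771 Lrg1-intermediate and 980 Lrg1-high), 197 secretory, 204 ciliated and 505 myeloid cells. The Control library held 1800 AT2 cells (1626 Lrg1-low, 150 Lrg1-intermediate and 24 Lrg1-high), 757 secretory, 193 ciliated and 447 myeloid cells. Median UMIs per cell were 22537 in NAPH and 29252 in Control secretory cells, 8067.5 in NAPH and 5339 in Control ciliated cells, and between 7640 and 10273 in the other gates. In every gate of both libraries, 8 of the 8 markers of its own class had UMIs. Presence of UMIs in such sums does not separate the classes: in the NAPH myeloid gate 8 of 8 AT2, 8 of 8 secretory and 8 of 8 ciliated markers had them too. The gates are ranges of RNA and not proven types: a list of 8 myeloid markers summed to 30835 to 37172 CPM in the NAPH AT2 gates and 39701 to 47868 CPM in the Control AT2 gates, and it includes Lyz2 and Cd74, which AT2 cells express. In the NAPH myeloid gate a list of 5 B cell markers summed to 6929 CPM, against 134 CPM in Control, and 5 T or NK cell markers to 42.5 CPM in NAPH and 0.532 CPM in Control. Few cells lay near the edges of the gates. The 13 NAPH cells just inside the Sftpc threshold had 814 CPM of Gclc and the 14 just outside it 804 CPM, and the 16 NAPH cells just inside the Scgb1a1 threshold had 209 CPM and the 10 just outside it 295 CPM.

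A level is given as UMIs of the gene per 1000000 UMIs (CPM) summed over the cells of a gate and library, and a range in parentheses is an exact 95% Poisson interval. Each group is a single library, so nothing shows the spread between animals: each difference is between these 2 libraries, no test between conditions was made, and intervals and floors cover counting error only. A ratio is divided by the median ratio of all genes with at least 20 UMIs over both sums, and a gene is called higher or lower past 1.5-fold of that median. On the log2 scale the median gene was shifted by 0.61 in secretory cells, where Scgb1a1 took 35.0% of UMIs in NAPH and 59.6% in Control, and by -0.04 to 0.16 in the other gates. CPM of 3' counts are compared for 1 gene across gates and libraries, not between genes.

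Gclc stood apart from the other 9 genes in breadth. In NAPH its ratio was past 1.5-fold in 5 of the 6 gates, with intervals that left out 1 in all 5, and no other gene was higher in more than 3. Of the 8 genes with enough UMIs in Lrg1-low AT2 cells, 2 were higher, Gclc and Srxn1, and 0 were lower, where 6.9% of all genes were higher and 7.14% lower. Of 8 in Lrg1-intermediate cells, 3 were higher (Gclc, Gclm and Srxn1) and 0 lower, against 13.2% and 9.82% of all genes. Of 8 in Lrg1-high cells, 2 were higher (Gclm and Txnrd1) and 0 lower, against 14.1% and 22.3% of all genes, and both rested on 3 Control UMIs. Of 10 in secretory cells, 3 were higher (Gclc, G6pdx and Slc7a11) and 0 lower, against 12.1% and 12.5% of all genes. Of 9 in ciliated cells, 4 were higher (Gclc, Srxn1, G6pdx and Me1) and 0 lower, against 15.4% and 9.48%. Of 8 in myeloid cells, 2 were higher (Gclc and Me1) and 0 lower, against 9.54% and 9.03%. In plain CPM, without division by the median gene, 8 of the 10 genes were past 1.5-fold in secretory cells, a scale on which the median gene itself was 1.525-fold higher in NAPH.

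The median log2 ratio of the genes with enough UMIs was 0.37 in Lrg1-low AT2, 0.15 in secretory, 0.55 in ciliated and 0.06 in myeloid cells, where that of all genes is 0 by construction.

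**Figure D1:**
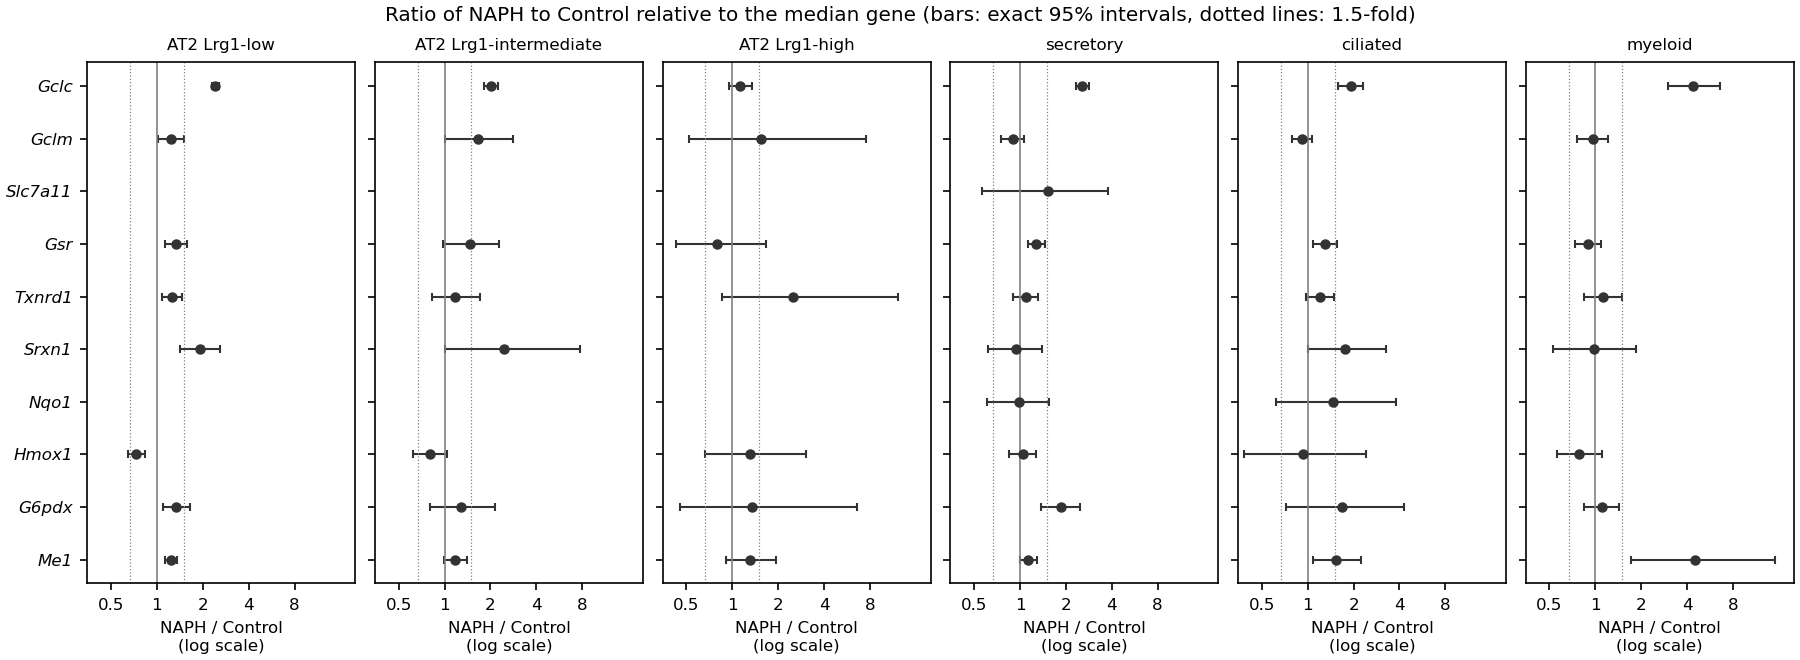
Ratio of NAPH to Control for each gene with at least 20 UMIs (rows) in each of the 6 gates (panels), relative to the median gene, on a log axis with exact 95% intervals and dotted lines at 1.5-fold. Gclc lies right of the upper line in 5 gates and at 1.12 in Lrg1-high AT2 cells, and most other points lie between the lines.

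Gclc encodes the catalytic subunit of glutamate-cysteine ligase, the rate-limiting enzyme of glutathione synthesis (GRCm38, chr9:77754535-77794485, plus strand). In Lrg1-low AT2 cells it had 470.5 CPM in NAPH (454.5 to 486.9) and 178 CPM in Control (170.5 to 185.2), a ratio of 2.42 (2.29 to 2.55). In Lrg1-intermediate cells it had 633 CPM in NAPH and 284 CPM in Control, a ratio of 2.01 (1.81 to 2.25). In Lrg1-high cells it had 774 CPM in NAPH (757 to 791) and 619 CPM in Control (518 to 733), a ratio of 1.12 (0.947 to 1.34) on 134 Control UMIs from 24 cells. Gclc stood higher with more Lrg1 in both libraries, and the interval of its ratio included 1 in the Lrg1-high gate and in no other.

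Outside the alveolus Gclc had 163 CPM in NAPH secretory cells and 41.9 CPM in Control, a ratio of 2.56 (2.31 to 2.82). In ciliated cells it had 251 CPM in NAPH and 122 CPM in Control, a ratio of 1.92 (1.59 to 2.32). In myeloid cells it had 37.3 CPM in NAPH and 8.78 CPM in Control, a ratio of 4.39 (3.0 to 6.59). The order of the levels was the same in both libraries, from Lrg1-high through Lrg1-intermediate and Lrg1-low AT2 cells to ciliated, secretory and myeloid cells, and no 2 neighbours in it had overlapping intervals.

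RNA released from AT2 cells can reach other droplets. If all Sftpc outside the AT2 gate were carried with AT2 RNA, the carried Gclc would be 37.5% of its level in NAPH myeloid cells and 19.8% in Control, 18.9% of its level in NAPH secretory cells and 5.40% in Control, and 14.1% in NAPH ciliated cells and 7.53% in Control. With that level subtracted, the Gclc ratio was 3.42 in myeloid and 2.19 in secretory cells. Secretory RNA, scaled by Scgb1a1 in the same way, would carry 3.43% of the myeloid Gclc in NAPH and 11.0% in Control. AT2 markers other than Sftpc, which include surfactant genes of secretory cells, summed to 21637 CPM in the NAPH secretory gate and 8469 CPM in Control, and to 2188 CPM in the NAPH myeloid gate and 1011 CPM in Control. The NAPH myeloid gate held 5 cells with at least 2 UMIs of the B cell genes Cd79a, Cd79b and Ms4a1. It held 16 with at least 2 UMIs of the T or NK cell genes Cd3e, Cd3d, Trac and Nkg7. The Control gate held 0 of either, and the other 484 NAPH cells had 36.0 CPM of Gclc. Igkc and Ighm, also in the B cell list, were not part of this rule, so cells with only these can be among the 484.

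The share of cells with Gclc followed its level. With every cell thinned to 3500 UMIs, Gclc was found in 86.3% of NAPH and 62.5% of Control Lrg1-high cells, in 77.95% of NAPH and 56.0% of Control Lrg1-intermediate cells, and in 65.7% of NAPH and 41.6% of Control Lrg1-low cells. It was found in 41.1% of NAPH and 12.8% of Control secretory cells, and in 47.5% of NAPH and 34.2% of Control ciliated cells. The lowest shares were in myeloid cells, 11.5% in NAPH and 2.24% in Control, at median depths of 7925 and 7930 UMIs. Without thinning, the same shares ran from 21.8% (myeloid) to 97.8% (Lrg1-high) in NAPH and from 7.38% to 91.7% in Control. The median Lrg1-low AT2 cell had 3.09 Gclc UMIs per 10000 in NAPH and 1.32 in Control, so the middle of the distribution differed as well as the sum. The median Lrg1-high cell had 6.74 in NAPH and 3.47 in Control, although the interval of the summed ratio included 1 in that gate. The 90th percentiles of Lrg1-high cells were 14.84 in NAPH and 14.78 in Control, the latter on 24 cells.

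**Figure D2:**
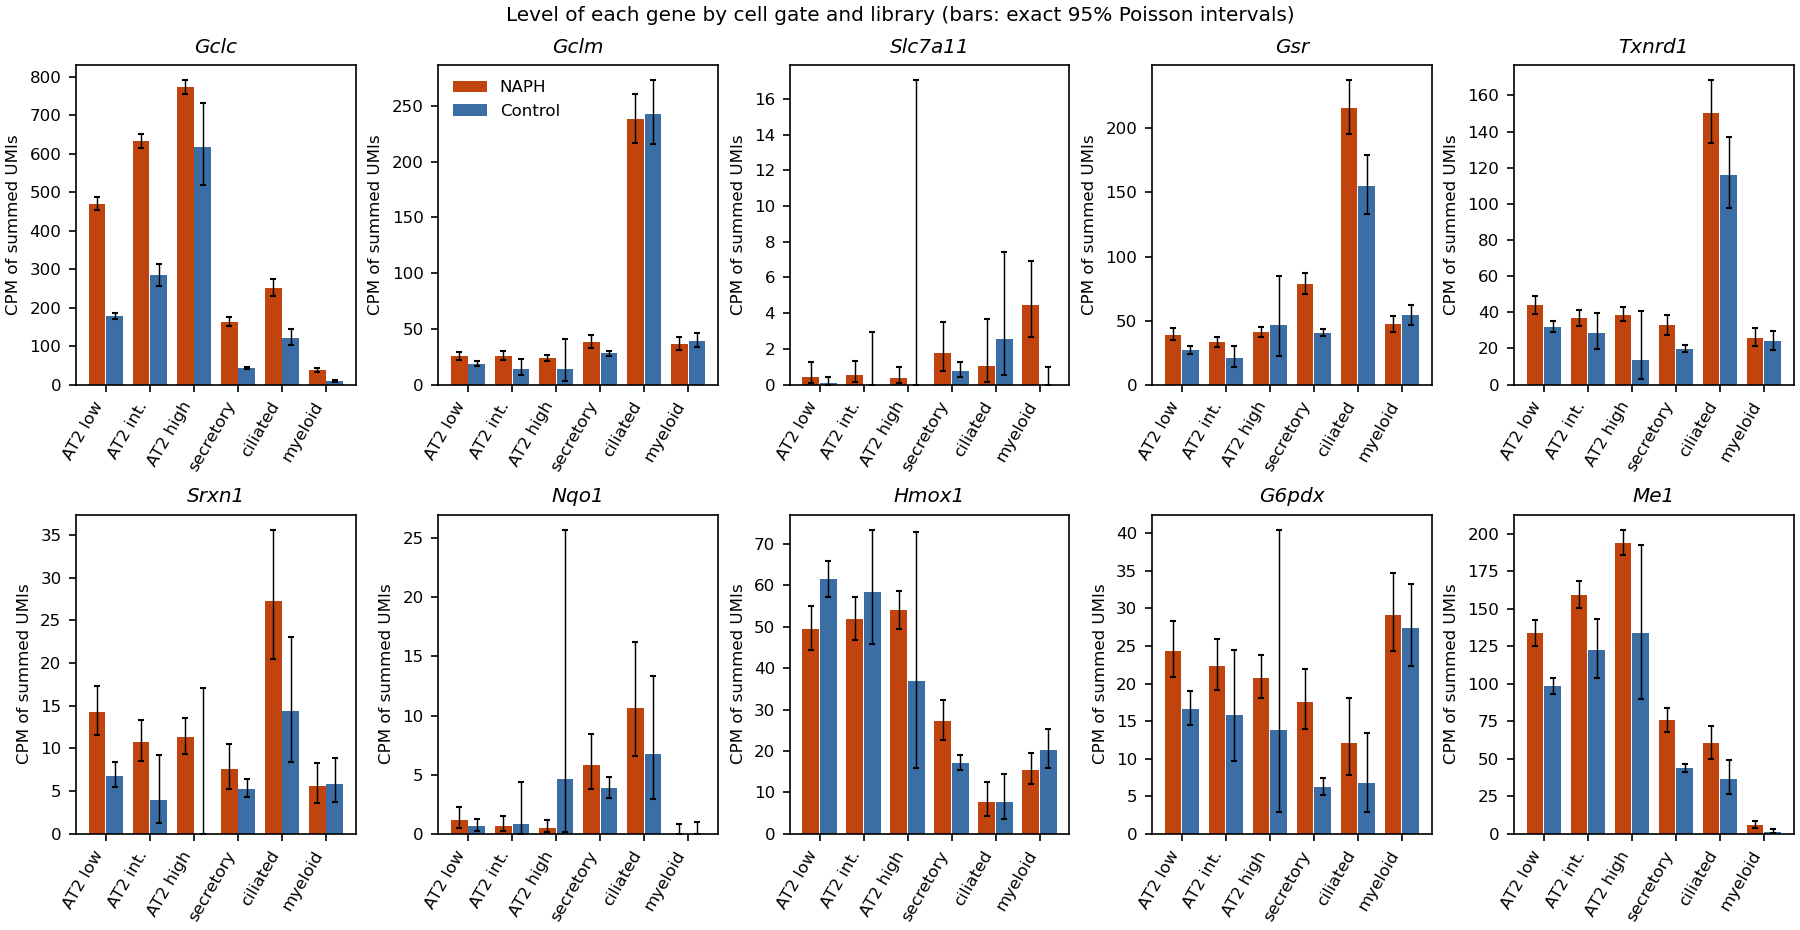
Level of each of the 10 genes (panels, each with its own axis from 0, in CPM of summed UMIs) in the 6 gates, for the NAPH and Control libraries, with exact 95% Poisson intervals. Gclc and Me1 were highest in AT2 cells, Gclm, Gsr and Txnrd1 were highest in ciliated cells, and the Control Lrg1-high bars rest on 24 cells.

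The composition of the AT2 gate differed as well. Lrg1-high cells gave 41.3% of the AT2 UMIs in NAPH and 1.52% in Control, and Lrg1-low cells 27.8% in NAPH and 89.6% in Control. Over all AT2 cells Gclc had 646 CPM in NAPH and 194 CPM in Control, a ratio of 3.12 (3.0 to 3.25), or 3.33 in plain CPM. Weighted to the NAPH composition, the Control level was 393 CPM and the plain ratio 1.65. Weighted to the Control composition, the NAPH level was 489.5 CPM and the plain ratio 2.53. Over all AT2 cells 3 of 9 genes were higher (Gclc, Srxn1 and Me1) and 0 lower, where 8.62% of all genes were higher and 8.2% lower.

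Gclm encodes the modifier subunit, which lowers the ligase's sensitivity to feedback by glutathione and carries the antioxidant element printed above (chr3:122245557-122270732, plus strand). Its levels did not run parallel to those of Gclc. In ciliated cells, its highest gate, it had 238 CPM in NAPH (217 to 261) and 243 CPM in Control (216 to 273), a ratio of 0.913 (0.786 to 1.06). In secretory cells it had 38.5 CPM in NAPH and 28.1 CPM in Control, a ratio of 0.899 (0.755 to 1.07). In myeloid cells it had 36.6 CPM in NAPH and 39.4 CPM in Control. The intervals overlapped in ciliated and myeloid cells.

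In Lrg1-low AT2 cells Gclm had 25.4 CPM in NAPH and 18.6 CPM in Control, a ratio of 1.24 (1.02 to 1.52). In Lrg1-intermediate cells it had 25.9 CPM in NAPH and 14.2 CPM in Control, a ratio of 1.65 (1.01 to 2.83) on 18 Control UMIs. In Lrg1-high cells it had 23.7 CPM in NAPH and 13.9 CPM in Control, a ratio of 1.54 (0.519 to 7.49) on 3 Control UMIs. Across the 3 NAPH gates Gclm was level within its intervals, while Gclc differed between them.

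Slc7a11, the cystine carrier of system xc- that brings in the cysteine for glutathione (chr3:49892526-50443614, minus strand), was rare everywhere. It had 11 UMIs in all NAPH AT2 cells and 1 in Control, 2 in NAPH ciliated cells and 3 in Control, and 8 in NAPH secretory cells and 16 in Control. The secretory ratio of 1.52 (0.563 to 3.77) was past 1.5-fold with an interval that included 1. In myeloid cells Slc7a11 had 19 UMIs, in 12 cells with at most 4 each, in NAPH and 0 in Control. Against a floor of 3 UMIs summed over the gate it was at least 5.73-fold higher in NAPH, and with under 20 UMIs it was not counted in the calls. Those 12 cells had 2037 CPM of Chil3, 587 CPM of Ccr7 and 120 CPM of Cd209a, genes of macrophages or monocytes and of dendritic cells. They had 3235 CPM of Lyz2, 11.98 CPM of S100a8, and 0 UMIs of the dendritic cell gene Xcr1 and the B cell gene Cd79a. Levels of these genes in the other myeloid cells are not given, so the sums do not show what is particular to the 12 cells. Slc7a11 overlaps Gm37854 on the other strand, and whether counting used strand is not stated in those sources.

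Gsr encodes glutathione reductase, which returns oxidised glutathione to its thiol form with NADPH (chr8:33652523-33698163, plus strand). In ciliated cells it had 216 CPM in NAPH (196 to 237.5) and 155 CPM in Control (133 to 179), a ratio of 1.30 (1.09 to 1.55). In secretory cells it had 78.6 CPM in NAPH and 40.2 CPM in Control, a ratio of 1.28 (1.13 to 1.45). In Lrg1-low AT2 cells it had 39.1 CPM in NAPH and 26.8 CPM in Control, a ratio of 1.33 (1.13 to 1.57). In these 3 gates the intervals left out 1 and the ratios stayed short of 1.5-fold. Lrg1-intermediate cells had 33.2 CPM in NAPH and 20.6 CPM in Control, and Lrg1-high cells 40.8 CPM in NAPH and 46.2 CPM in Control, on 10 Control UMIs.

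Within the myeloid gate, Gsr was higher in the cells with more macrophage marker RNA. Cells with at least 10 UMIs of macrophage markers per 10000 had 213 CPM of Gsr in NAPH (71 cells) and 225 CPM in Control (95 cells). Cells below that threshold had 27.2 CPM in NAPH (434 cells) and 18.1 CPM in Control (352 cells). The whole gate had 46.9 CPM in NAPH and 54.0 CPM in Control, with overlapping intervals.

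Txnrd1, the cytosolic thioredoxin reductase (chr10:82833951-82897712, plus strand), was also highest in ciliated cells. There it had 150 CPM in NAPH (134 to 168) and 116 CPM in Control (97.5 to 137), a ratio of 1.21 (0.982 to 1.49). In secretory cells it had 32.7 CPM in NAPH and 19.7 CPM in Control, a ratio of 1.09 (0.897 to 1.32). In Lrg1-low AT2 cells it had 43.8 CPM in NAPH and 31.8 CPM in Control, a ratio of 1.26 (1.08 to 1.46). These differences were small beside those of Gclc in the same gates. Lrg1-intermediate cells had 36.8 CPM in NAPH and 28.5 CPM in Control. Lrg1-high cells had 38.7 CPM in NAPH and 13.9 CPM in Control, a ratio of 2.51 (0.853 to 12.2) on 3 Control UMIs. Myeloid cells had 25.9 CPM in NAPH and 24.0 CPM in Control.

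Srxn1 encodes sulfiredoxin, which restores peroxiredoxins after overoxidation (chr2:152105516-152111376, plus strand), and its promoter window holds the AP-1 letters at 2 places. In Lrg1-low AT2 cells it had 14.3 CPM in NAPH (11.6 to 17.4) and 6.81 CPM in Control (5.45 to 8.40), a ratio of 1.91 (1.42 to 2.58). In Lrg1-intermediate cells it had 10.8 CPM in NAPH and 3.95 CPM in Control, a ratio of 2.46 (1.01 to 7.77) on 5 Control UMIs. In Lrg1-high cells it had 11.4 CPM in NAPH and 0 UMIs in Control, where 3 UMIs would be 13.9 CPM, so no fold is given. In ciliated cells it had 27.3 CPM in NAPH and 14.4 CPM in Control, a ratio of 1.77 (1.01 to 3.25). Srxn1 was the gene after Gclc with the most gates past 1.5-fold whose intervals left out 1. Secretory cells, with 7.57 CPM in NAPH and 5.28 CPM in Control, and myeloid cells, with 5.60 CPM in NAPH and 5.85 CPM in Control, had overlapping intervals.

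Nqo1, a quinone reductase often used as a readout of NRF2 (chr8:107388225-107403206, minus strand), was near the detection limit. All AT2 cells together held 18 UMIs of it in NAPH and 10 in Control, and myeloid cells 0 in both, which allows up to 0.7002 CPM in NAPH and 0.798 CPM in Control. In secretory cells it had 5.79 CPM in NAPH and 3.84 CPM in Control, a ratio of 0.988 (0.609 to 1.56). In ciliated cells it had 10.6 CPM in NAPH and 6.78 CPM in Control, a ratio of 1.46 (0.621 to 3.81). In both of these gates the interval of the summed ratio took in the median gene. With cells thinned as for Gclc, Nqo1 was found in 8 of 197 NAPH and 6 of 757 Control secretory cells. These shares were 4.06% (1.77 to 7.8) in NAPH and 0.793% (0.291 to 1.72) in Control, with intervals that did not overlap. Without thinning they were 11.2% in NAPH and 9.64% in Control. In thinned ciliated cells the shares were 4.41% in NAPH and 2.59% in Control, with overlapping intervals.

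Hmox1, the inducible heme oxygenase, which degrades heme to biliverdin, iron and carbon monoxide (chr8:75093621-75100589, plus strand), was the gene with the lowest ratio in Lrg1-low AT2 cells. It had 49.4 CPM in NAPH (44.4 to 55.0) and 61.5 CPM in Control (57.3 to 65.95) there, a ratio of 0.734 (0.645 to 0.834), short of the lower limit of 0.667. Lrg1-intermediate cells had 51.9 CPM in NAPH and 58.5 CPM in Control, and Lrg1-high cells 53.9 CPM in NAPH and 36.9 CPM in Control, the Control value on 8 UMIs. Over all AT2 cells the ratio was 0.801 (0.735 to 0.874). Secretory cells had 27.2 CPM in NAPH and 17.1 CPM in Control, a ratio of 1.04, and ciliated cells 7.59 CPM in NAPH and 7.63 CPM in Control. In the myeloid gate, cells above the macrophage marker threshold used for Gsr above had a higher Hmox1 level, 70.2 CPM in NAPH and 70.3 CPM in Control, than the other myeloid cells, with 8.88 CPM in NAPH and 9.67 CPM in Control. They held 32 of the 66 myeloid Hmox1 UMIs in NAPH and 46 of the 76 in Control.

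G6pdx encodes glucose-6-phosphate dehydrogenase, which feeds the pentose phosphate pathway and reduces NADP+ (chrX:74409483-74429194, minus strand). In secretory cells it had 17.6 CPM in NAPH (13.9 to 21.9) and 6.24 CPM in Control (5.21 to 7.41), a ratio of 1.85 (1.38 to 2.46). In ciliated cells it had 12.1 CPM in NAPH and 6.78 CPM in Control, a ratio of 1.67 (0.725 to 4.30) on 8 Control UMIs. In Lrg1-low AT2 cells it had 24.4 CPM in NAPH and 16.6 CPM in Control, a ratio of 1.34 (1.09 to 1.65). The secretory difference was the only one past 1.5-fold with an interval that left out 1. Lrg1-intermediate cells had 22.3 CPM in NAPH and 15.8 CPM in Control, Lrg1-high cells 20.8 CPM in NAPH and 13.9 CPM in Control, and myeloid cells 29.2 CPM in NAPH and 27.4 CPM in Control. G6pd2, a near copy of G6pdx, had 0 UMIs in either library, and Ikbkg overlaps G6pdx on the other strand.

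Me1, the cytosolic malic enzyme, makes NADPH as it turns malate into pyruvate and is a source of reducing power for fatty acid synthesis (chr9:86581371-86695953, minus strand, overlapped by A330041J22Rik on the other strand). In Lrg1-high cells it had 194 CPM in NAPH (186 to 203) and 134 CPM in Control (89.7 to 192), a ratio of 1.30 (0.903 to 1.95). In Lrg1-intermediate cells it had 159 CPM in NAPH and 122.5 CPM in Control, a ratio of 1.17 (0.992 to 1.40). In Lrg1-low cells it had 134 CPM in NAPH and 98.5 CPM in Control, a ratio of 1.24 (1.14 to 1.35). No AT2 gate was past 1.5-fold by itself. Over all AT2 cells, with more Lrg1-high cells in NAPH, Me1 had 166.5 CPM in NAPH and 101 CPM in Control, a ratio of 1.54 (1.45 to 1.64), and the plain ratio at the NAPH composition was 1.38.

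Outside the AT2 gates Me1 had 75.7 CPM in NAPH and 43.8 CPM in Control secretory cells, a ratio of 1.13 (0.998 to 1.28), and 60.2 CPM in NAPH and 36.4 CPM in Control ciliated cells, a ratio of 1.54 (1.08 to 2.24). In myeloid cells it had 25 UMIs in NAPH and 5 in Control, a ratio of 4.52 (1.70 to 15.1). By the same reckoning as for Gclc, AT2 RNA would carry 61.8% of the myeloid Me1 in NAPH and 68.1% in Control, and secretory RNA, scaled by Scgb1a1, 10.2% in NAPH and 76.0% in Control. Both together came to 4.2 CPM against the measured 5.84 CPM in NAPH, and to 1.92 CPM against the measured 1.33 CPM in Control. Both together exceeded the measured level in Control, so no ratio with both subtracted is given. With AT2 RNA alone subtracted, as for Gclc, the Me1 ratio was 5.42, on the same 5 Control UMIs.

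Lrg1-high and Lrg1-low AT2 cells were also compared within each library. In NAPH 2 of 8 genes were higher in Lrg1-high cells, Gclc and Me1, and 0 lower, where 5.67% of all genes were higher and 8.61% lower. Gclc had 774 CPM in Lrg1-high and 470.5 CPM in Lrg1-low NAPH cells, a ratio of 1.73 (1.66 to 1.80), and Me1 had 194 CPM in Lrg1-high and 134 CPM in Lrg1-low NAPH cells, a ratio of 1.52 (1.41 to 1.65). The other 6 genes lay between 0.835 (Srxn1) and 1.145 (Hmox1). In Control, with 24 Lrg1-high cells, 2 of 8 were higher, Gclc and Gsr, and 2 lower, Txnrd1 and Hmox1, where 22.6% of all genes were higher and 12.8% lower. Among these 4 only Gclc, with a ratio of 3.72 (3.10 to 4.42), had an interval that left out 1. Me1 had a ratio of 1.45 (0.968 to 2.10) in Control.

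In 7 bins of rising Lrg1, Gclc in NAPH had 466, 446, 489, 552, 691, 749 and 804 CPM. In Control it had 159, 197, 231, 259, 332 and 668 CPM in the first 6 bins, and 286 CPM (123 to 563) in the last, which held 3 cells. NAPH cells without any Lrg1 UMI, 205 of them, thus had 466 CPM, against 159 CPM in 1061 such Control cells. Me1 had 125 CPM in the first and 198 CPM in the last NAPH bin, and 93.6 CPM in the first and 122 CPM in the sixth Control bin. Median depth per cell in NAPH was 7423 UMIs in the first bin and 10801 UMIs in the last, and the part of depth in the gradient was not tested.

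**Figure D3:**
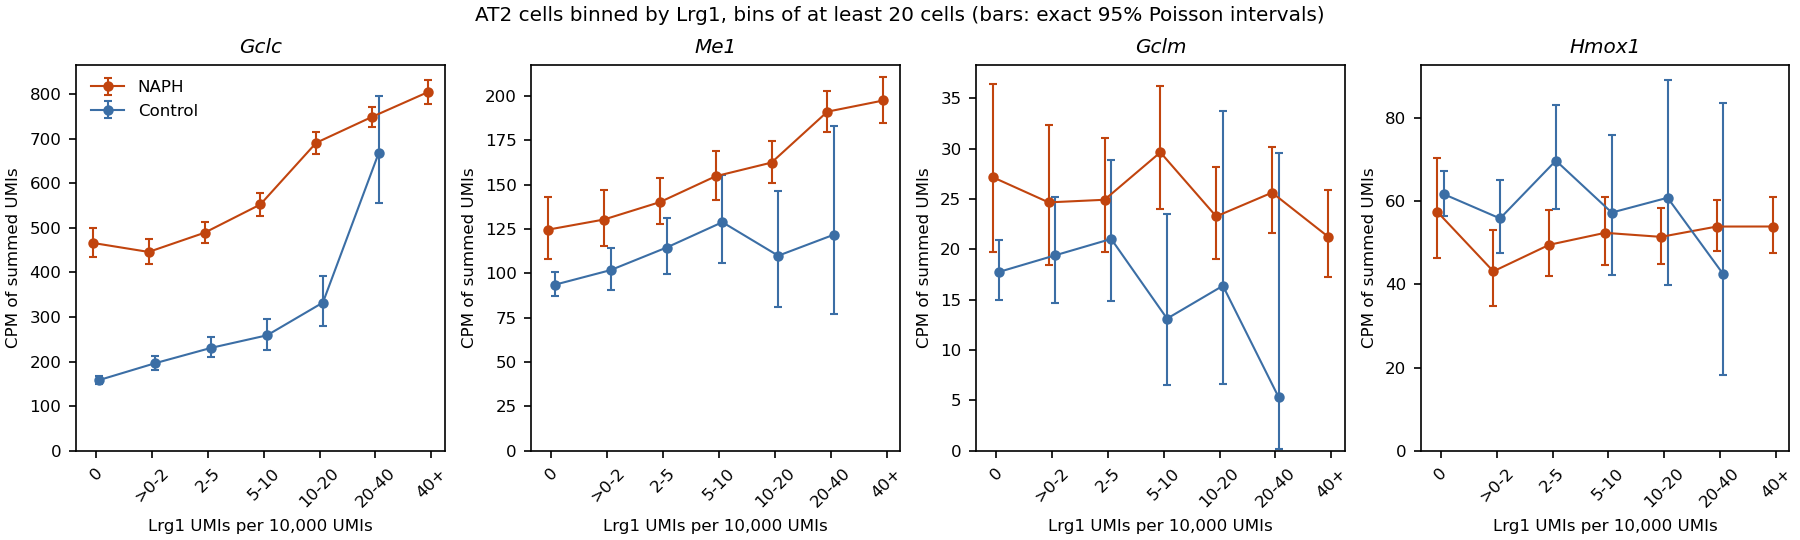
Level (CPM of summed UMIs, axes from 0) of Gclc, Me1, Gclm and Hmox1 in AT2 cells binned by Lrg1 UMIs per 10000, in NAPH and Control, for bins of at least 20 cells, with exact 95% Poisson intervals. Gclc in NAPH lies at 466 CPM without Lrg1 and at 804 CPM in the last bin, above Control in every bin drawn for both libraries, while Gclm and Hmox1 show no such gradient.

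AT2 cells were also split by Areg and Sprr1a, genes of injured and transitional alveolar epithelium. No share of all genes past 1.5-fold is given for this split, so its ratios have no such background beside them. Cells with at least 5 UMIs of both together per 10000 numbered 155 in NAPH and 27 in Control, and cells below that threshold 2360 in NAPH and 1773 in Control. In NAPH, Srxn1 had 45.8 CPM in cells at or above the threshold and 9.71 CPM below it, a ratio of 4.37 (3.30 to 5.71). In Control, Srxn1 had 28.9 CPM at or above it and 6.06 CPM below it, a ratio of 4.30 (1.68 to 9.26) on 7 UMIs. The intervals of these ratios overlapped, and the difference between the libraries in this step was not tested.

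In NAPH, Txnrd1 had 71.9 CPM at or above the threshold and 37.4 CPM below it, a ratio of 1.78 (1.45 to 2.17), and Gsr had 63.0 CPM at or above it and 36.3 CPM below it, a ratio of 1.61 (1.29 to 1.98). G6pdx had a ratio of 1.58 (1.18 to 2.08) and Gclm of 1.45 (1.09 to 1.90). Gclc had 890 CPM at or above it and 630 CPM below it, a ratio of 1.31 (1.24 to 1.38). Of these genes, Srxn1 and Txnrd1 had intervals wholly above that of Gclc. Me1 went the other way, with 144 CPM at or above the threshold and 168 CPM below it in NAPH, a ratio of 0.792 (0.689 to 0.905), and a ratio of 0.549 (0.306 to 0.908) in Control. Hmox1 had a ratio of 0.760 (0.587 to 0.971) in NAPH and 1.23 (0.749 to 1.92) in Control.

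**Figure D4:**
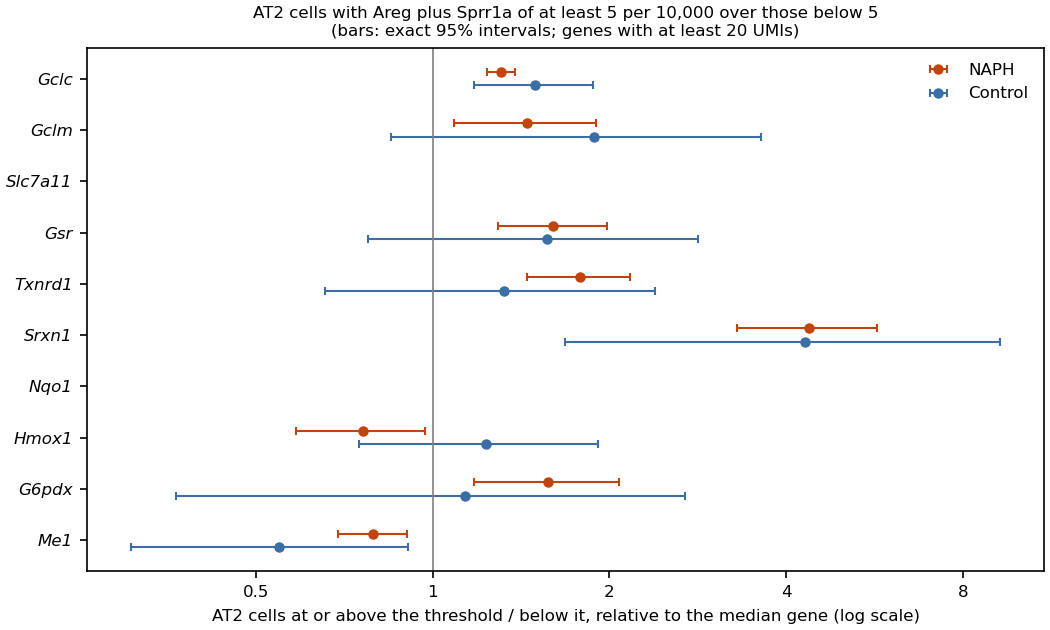
Ratio of AT2 cells with at least 5 Areg plus Sprr1a UMIs per 10000 to AT2 cells below 5, relative to the median gene, on a log axis with exact 95% intervals, for genes (rows) with at least 20 UMIs in NAPH and Control. Srxn1 lies at 4.37 in NAPH and 4.30 in Control, and Me1 lies left of 1 in both.

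The secretory gate holds more than 1 kind of cell. In cells with at least 20 UMIs per 10000 of Cyp2f2, the cytochrome P450 typical of mouse club cells, Gclc had 167 CPM in NAPH (143 cells) and 42.0 CPM in Control (741 cells), a ratio of 2.61 (2.34 to 2.91). In cells below that threshold it had 153 CPM in NAPH (54 cells) and 34.8 CPM in Control (16 cells), a ratio of 4.17 (2.07 to 9.80). Gclc thus differed between the libraries on both sides of the Cyp2f2 threshold. The gate was also split at 1 UMI per 10000 of Upk3a, a marker of variant club cells. In cells at or above that threshold Gclc had 130 CPM in NAPH (71 cells) and 50.6 CPM in Control (9 cells, 10 UMIs), a ratio of 1.68 (0.895 to 3.55). In cells below the Upk3a threshold, which can still hold Upk3a UMIs, Gclc had 184 CPM in NAPH and 41.8 CPM in Control, a ratio of 3.01 (2.69 to 3.36). Within NAPH, Gsr had 103 CPM below the Cyp2f2 threshold (86.3 to 123) and 69.1 CPM at or above it (60.4 to 78.8).

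By likeness of pattern over the 12 sums of gate and library, the 5 genes closest to Gclc among 4687 with at least 50 CPM in 1 sum were Clip4 (Pearson r of 0.98 on log2 of CPM plus 10), Trp53inp2 (0.96), Tmem56 (0.95), Bcam (0.95) and Avpi1 (0.95). These sums share 2 libraries and AT2 cells fill 6 of them, so r describes mostly AT2 against the rest. Among the 10 genes, Me1 had an r of 0.94 to Gclc, Hmox1 0.56, Txnrd1 0.14, Gsr -0.13 and Gclm -0.20, and the other 4 did not reach 50 CPM in any sum.

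The other lists of the pathway were read against the shares of all genes given above for all AT2 cells (8.62% higher, 8.2% lower) and for secretory cells (12.1% higher, 12.5% lower). Counts over all AT2 cells take in the different Lrg1 composition of the libraries, so the counts within the Lrg1 gates are given with them. Those of Lrg1-high cells rest on the 24 Control cells. A count within a gate stands against the share of all genes in that gate. These shares were 6.9% higher and 7.14% lower in Lrg1-low cells and 13.2% higher and 9.82% lower in Lrg1-intermediate cells. In Lrg1-high cells they were 14.1% higher and 22.3% lower. Of 9 regulators of NRF2, 0 were higher and 0 lower over all AT2 cells and in Lrg1-low cells, 1 higher and 0 lower in Lrg1-intermediate cells, and 1 higher and 2 lower in Lrg1-high cells. Nfe2l2, which encodes NRF2, had 136 CPM in NAPH and 108 CPM in Control, a ratio of 1.19 (1.12 to 1.26), and Maff, a small MAF, had a ratio of 1.19 (0.989 to 1.45). Bach1, a repressor that competes for the same elements, had a ratio of 0.901 (0.781 to 1.04), and Mafg 0.905 (0.803 to 1.02). In secretory cells 1 of 9 was higher and 1 lower. Nfe2l2 had 93.5 CPM in NAPH and 40.2 CPM in Control there, a ratio of 1.53 (1.35 to 1.72), and Nfe2l1 a ratio of 1.25 (0.966 to 1.60). Sqstm1, whose protein p62 binds KEAP1, had 75.2 CPM in NAPH and 84.4 CPM in Control, a ratio of 0.584 (0.519 to 0.657), and Bach1 a ratio of 0.669 (0.401 to 1.07).

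Of 11 other genes of glutathione synthesis and turnover with enough UMIs, 3 were higher and 0 lower over all AT2 cells. In Lrg1-low cells 2 were higher and 1 lower, in Lrg1-intermediate cells 3 higher and 0 lower, and in Lrg1-high cells 1 higher and 4 lower. Chac1, which degrades glutathione, had 3.77 CPM in NAPH and 0.561 CPM in Control on 94 and 8 UMIs, a ratio of 6.29 (3.07 to 15). Cth, which makes cysteine from cystathionine, had 30.9 CPM in NAPH and 15.2 CPM in Control, a ratio of 1.90 (1.63 to 2.22) that was 1.26 in Lrg1-low, 1.89 in Lrg1-intermediate and 0.936 in Lrg1-high cells. Slc3a2, the heavy chain that pairs with Slc7a11 and other carriers, was the remaining one, with a ratio of 1.72 (1.59 to 1.86), which was 1.34 in Lrg1-low cells. The lowest 2 were Ggt5 at 0.767 (0.679 to 0.867), past the lower limit in Lrg1-low cells at 0.503 (0.406 to 0.619), and Mat2a at 1.02 (0.947 to 1.09). In secretory cells 3 of 10 were higher and 2 lower, and the pair of Cth and Slc3a2 stood on the other side. Slc3a2 had 76.3 CPM in NAPH and 84.0 CPM in Control, a ratio of 0.596 (0.529 to 0.670), and Cth a ratio of 0.573 (0.291 to 1.04) on 13 NAPH UMIs. The highest were Chac2 at 2.24 (1.59 to 3.15) and Ggt5 at 2.13 (0.995 to 4.43), followed by Ggct at 2.03 (1.5 to 2.73).

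Among 10 glutathione peroxidases and glutaredoxins, 2 were higher and 0 lower over all AT2 cells, Gpx3 at 2.49 (1.38 to 4.80) and Gpx1 at 1.55 (1.5 to 1.60). In Lrg1-low and Lrg1-intermediate cells 0 were higher and 0 lower, and in Lrg1-high cells 1 was higher, Gpx2 on 1 Control UMI, and 1 lower. Gpx1, the main cytosolic peroxidase, had 572 CPM in NAPH and 346 CPM in Control over all AT2 cells, but its ratio was short of 1.5 in each gate, at 1.37 in Lrg1-low, 1.28 in Lrg1-intermediate and 1.46 in Lrg1-high cells. Gpx8 at 0.831 and Gpx7 at 0.975 were the lowest. In secretory cells 2 were higher and 0 lower, Gpx7 at 2.75 (1.81 to 4.16) and Glrx at 1.71 (1.45 to 2.0), and Gpx4 at 0.836 and Gpx8 at 0.871 were the lowest. Of 11 thioredoxins, their reductases and peroxiredoxins, 1 was higher and 0 lower in AT2 cells, Txnip at 1.58 (1.49 to 1.67), an inhibitor of thioredoxin, followed by Prdx3 at 1.41 (1.30 to 1.53), with Prdx6 at 0.737 and Txnrd3 at 0.757 the lowest. The Txnip ratio was 1.79 in Lrg1-low, 1.22 in Lrg1-intermediate and 0.984 in Lrg1-high cells. In secretory cells 1 was higher, Prdx4 at 1.70 (1.47 to 1.95), ahead of Txnip at 1.38, and 1 lower, Prdx6. Prdx6 had 1055 CPM in NAPH and 2187 CPM in Control, a ratio of 0.317 (0.307 to 0.326), and Txnrd3 was next at 0.783.

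Of 12 other genes of NADPH supply and the pentose phosphate pathway, 0 were higher and 1 lower in AT2 cells. The lower one was the mitochondrial transhydrogenase Nnt at 0.645 (0.517 to 0.806), with Idh2 next at 0.830. Not all genes of this list encode enzymes that make NADPH themselves. Within the gates, 0 were higher and 1 lower in Lrg1-low cells, 0 higher and 2 lower in Lrg1-intermediate cells, and 3 higher and 3 lower in Lrg1-high cells. Pgd at 1.32 (1.23 to 1.41) and Tkt at 1.25 (1.19 to 1.32), both of the pentose phosphate pathway, had the highest ratios. In secretory cells 1 was higher, Me2 at 1.89 (1.29 to 2.73), ahead of Rpia at 1.32, and 1 lower, Aldh1l1 at 0.363 (0.219 to 0.572), below Nnt at 0.773. Of 7 genes of heme and iron handling, 0 were higher and 0 lower over all AT2 cells and in each Lrg1 gate, with Blvra at 1.19 and Fth1 at 1.14 the highest and Fech at 0.806 and Hmox2 at 0.905 the lowest. In secretory cells 0 were higher and 3 lower, Blvrb at 0.605 (0.5003 to 0.728), Fth1 at 0.606 (0.594 to 0.618) and Slc48a1 at 0.637 (0.541 to 0.747), with Fech at 1.36 and Blvra at 1.22 the highest. In plain CPM 0 of the 7 were lower: Blvrb had 30.5 CPM in NAPH and 33.0 CPM in Control, Fth1 2732 CPM in NAPH and 2958 CPM in Control, and Slc48a1 41.2 CPM in NAPH and 42.4 CPM in Control.

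Of 14 further NRF2 targets, 2 were higher and 1 lower over all AT2 cells. In Lrg1-low cells 3 were higher and 0 lower, and in Lrg1-intermediate and Lrg1-high cells 2 higher and 1 lower of 13. Akr1b8, an aldo-keto reductase, had 37.3 CPM in NAPH and 15.4 CPM in Control, a ratio of 2.27 (1.96 to 2.64), and Slc39a4, a zinc importer, a ratio of 1.51 (1.35 to 1.69). Ephx1, the microsomal epoxide hydrolase, had a ratio of 0.546 (0.458 to 0.649), and Ptgr1 was next at 0.744. In secretory cells 2 were higher and 6 lower. The higher were again Akr1b8, with 34.7 CPM in NAPH and 6.48 CPM in Control, a ratio of 3.51 (2.77 to 4.46), and Slc39a4 at 1.70 (1.42 to 2.03). The lowest were Akr1c13 at 0.307 (0.154 to 0.556) and Abcc3 at 0.395 (0.312 to 0.494), and Ephx1 stood at 0.396 (0.333 to 0.468). In ciliated cells 7 of 12 were higher and 0 lower, where 15.4% of all genes were higher and 9.48% lower, with a median log2 ratio of 0.70. The intervals of 3 of the 7, Osgin1, Abcc1 and Abcc4, included 1. Akr1b8 had 59.7 CPM in NAPH and 17.8 CPM in Control ciliated cells, a ratio of 3.13 (1.95 to 5.24), and Slc39a4 a ratio of 1.94 (1.57 to 2.42). In myeloid cells 1 of 10 was higher and 2 were lower.

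Of 11 targets of ATF4, a factor of amino acid stress that also drives Slc7a11, 3 were higher and 0 lower in AT2 cells, Psat1 at 1.92 (1.39 to 2.70), Atf5 at 1.60 (1.35 to 1.90) and Sesn2 at 1.59, with Nupr1 at 0.739 and Trib3 at 0.925 the lowest. In Lrg1-low cells 4 were higher and 0 lower, in Lrg1-intermediate cells 5 higher and 1 lower, and in Lrg1-high cells 0 of 10 higher and 1 lower. In secretory cells 3 were higher and 1 lower, with Psat1 at 2.44 (1.67 to 3.56) and Phgdh at 1.82 (1.30 to 2.54) the highest and Trib3 at 0.203, on 2 NAPH UMIs, and Atf4 at 0.861 the lowest. Of 6 lipogenic genes, 2 were higher and 0 lower over all AT2 cells, Scd1 at 3.77 (3.73 to 3.81) and Fasn at 1.77 (1.72 to 1.82). Srebf1 at 0.983 and Acaca at 1.003 were the lowest. Within the gates Scd1 was past 1.5-fold at 2.48 in Lrg1-low, 2.14 in Lrg1-intermediate and 2.24 in Lrg1-high cells. Fasn was not, at 1.22 in Lrg1-low and 1.21 in both other gates. In secretory cells 3 of 7 were higher and 1 lower. Scd1 at 5.86 (5.50 to 6.24) and Fasn at 2.27 (1.97 to 2.63) were the highest, and Acsl1 at 0.594 and Elovl6 at 0.855 the lowest. Scd1 had 10890 CPM in NAPH and 2708 CPM in Control AT2 cells, against 639 CPM in NAPH and 71.5 CPM in Control secretory cells. Fasn had 942 CPM in NAPH and 499.5 CPM in Control AT2 cells, against 74.6 CPM in NAPH and 21.5 CPM in Control secretory cells. Carried AT2 RNA was not subtracted from these ratios, and its part in them was not tested.

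In ciliated cells 0 of 9 regulators were higher and 1 lower, 2 of 8 genes of glutathione synthesis and turnover higher and 2 lower, 1 of 10 peroxidases and glutaredoxins higher and 0 lower, and 1 of 11 thioredoxins and peroxiredoxins higher and 3 lower. There 1 of 10 genes of NADPH supply was higher and 1 lower, and 0 of 7 heme and iron genes were higher or lower. In the same cells 2 of 9 ATF4 targets were higher and 3 lower, and 2 of 6 lipogenic genes were higher and 0 lower. In myeloid cells 9.54% of all genes were higher and 9.03% lower, and 0 of 9 regulators were higher or lower. Of 11 genes of NADPH supply in myeloid cells, 0 were higher or lower. There 1 of 6 genes of glutathione synthesis and turnover and 3 of 9 peroxidases and glutaredoxins were higher and 0 lower, and 1 of 11 thioredoxins and peroxiredoxins and 1 of 7 heme and iron genes were lower and 0 higher. Of 9 ATF4 targets 2 were higher and 2 lower, and of 7 lipogenic genes 2 were higher and 0 lower. Scd1 had 637 CPM in NAPH and 108 CPM in Control ciliated cells, and 319 CPM in NAPH and 42.05 CPM in Control myeloid cells. Carried AT2 RNA was not subtracted from the counts of these lists, and its part in them was not tested. The secretory counts move with the scale. In plain CPM the median gene of all was itself 1.525-fold higher in NAPH secretory cells and thus past 1.5-fold. No share of all genes is given on that scale, so the plain counts below have no such background beside them. In plain CPM 3 regulators were higher and 0 lower, 5 genes of glutathione synthesis and turnover higher and 0 lower, and 6 peroxidases and glutaredoxins higher and 0 lower. On that scale 3 thioredoxins and peroxiredoxins were higher and 1 lower, 6 genes of NADPH supply higher and 1 lower, and 2 heme and iron genes higher. It gave 3 further NRF2 targets higher and 3 lower, 5 ATF4 targets higher and 1 lower, and 5 lipogenic genes higher and 0 lower.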

How the data were processed

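Single-cell 3' libraries of Epcam-sorted mouse lung cells, 1 NAPH and 1 Control, were analysed. The authors deposited unnormalised UMI counts for each gene in each barcode, made with Cell Ranger against mm10 per the submitters' processing notes. The sources used here do not give its version, its cell calling or any treatment of doublets. Cells were kept with at least 500 genes, at least 1000 UMIs and at most 20% mitochondrial UMIs, which removed 4 in NAPH and 0 in Control. Scrublet's automatic threshold called 0.0815% of NAPH and 0.243% of Control barcodes, so doublets were removed by score at an expected 0.8% per 1000 barcodes, 109 in NAPH and 87 in Control. The NAPH library held 3685 barcodes and 38497783 UMIs, and the Control library 3298 barcodes and 41699755 UMIs.

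Cells were gated per 10000 UMIs and counts were summed per gate and library. Levels are CPM with exact Poisson intervals. Ratios have exact conditional Poisson intervals at 95%, and were divided by the median ratio of all genes with at least 20 UMIs. The ratio step was tested on simulated data. Carried RNA was scaled on Sftpc. Python 3.11.15, scanpy 1.11.5, scipy 1.17.1 and edgeR 4.0.16 (TMM factors only, as an alternative) were used. Positions came from GENCODE vM21 (GRCm38) and promoters from RefSeq (GRCm38.p6).

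The genes named are all 10 members, of each other list the 2 highest and 2 lowest ratios with at least 30 UMIs in AT2 and in secretory cells, and the 5 genes most like Gclc. Slc3a2 and Sesn2 in AT2 cells, Ggct, Ephx1 and Slc48a1 in secretory cells, and Akr1b8 and Slc39a4 in ciliated cells were named after their values were seen. The members and lists were chosen with earlier results of these data known.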

Additional observations from a re-analysis of the deposited data

How the results depend on the processing

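The ratios of the 10 genes were recomputed with other scalings, count minimums, gates and cell filters. Scaling by edgeR's TMM factors kept 76 of 76 ratios within their counting interval, and so did keeping all doublets (76 of 76) and leaving out cells of more than 1 class (75 of 75). In plain CPM 8 genes were higher in secretory cells, against 3, and 1 in the Lrg1-high over Lrg1-low contrast in NAPH, against 2, as it was without Sftpc and Scgb1a1 in the totals and with doubled gate thresholds. With at least 1 UMI in each sum, 4 were higher in Lrg1-low cells, 4 higher and 1 lower in Lrg1-high cells, 1 lower in ciliated cells and 1 lower in the NAPH Lrg1 contrast. With at least 100 UMIs, as with cells thinned to 3500 UMIs, 2 were higher in ciliated and 1 in myeloid cells. With halved thresholds, 1 was higher and 1 lower in the Control Lrg1 contrast. Thinning gave 1 lower gene in Lrg1-high cells and 1 in the Control Lrg1 contrast, and means over cells gave 1 lower there. At 2-fold, 1 gene was higher in Lrg1-low, Lrg1-high, secretory and all AT2 cells, 0 in ciliated cells and 0 in the NAPH Lrg1 contrast, and 1 higher and 1 lower in the Control one. Gclm in Lrg1-high cells, on 3 Control UMIs, fell below the median gene after thinning (0.888), and Slc7a11 in secretory cells did so for means over cells (0.959). The cause of these shifts was not tested beyond the change of setting itself. The Gclc ratio kept its direction in every setting run, from 2.38 to 2.65 in Lrg1-low, 1.498 to 2.23 in Lrg1-intermediate, 1.11 to 1.59 in Lrg1-high, 2.19 to 3.90 in secretory, 1.67 to 2.06 in ciliated and 3.42 to 6.69 in myeloid cells. Halved thresholds gave the 1.59 in Lrg1-high cells and doubled ones the 1.498 in Lrg1-intermediate cells, which crosses 1.5-fold. The subtraction of carried AT2 RNA was chosen after seeing the data. Doubled thresholds left too few Control Lrg1-high cells for a ratio. Low UMI counts limit Nqo1 and Slc7a11, and the number of cells limits the 24 Control Lrg1-high cells. No paired analysis was possible because there is 1 library per group and no shared replicate number.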

Other observations

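In NAPH 167 cells and in Control 25 cells met none of the gate rules. They had 904 CPM of Krt8 in NAPH and 687 CPM in Control, and 1381 CPM of the AT1 gene Ager in NAPH and 1298 CPM in Control. Other markers differed between the libraries in these cells: the basal cell keratin Krt5 had 108 CPM in NAPH and 332 CPM in Control, Areg 228 CPM in NAPH and 47.4 CPM in Control, Col1a1, a fibroblast collagen, 109.5 CPM in NAPH and 17.8 CPM in Control, and Sprr1a 260.1 CPM in NAPH and 0 UMIs in Control. The part of these marker differences in the values that follow was not tested. Gclc had 283 CPM in these cells in NAPH (257.5 to 310) and 160 CPM in Control (105 to 233). Me1 had 94.2 CPM in NAPH (79.9 to 110) and 35.6 CPM in Control (13.1 to 77.4, 6 UMIs). Srxn1 had 19.6 CPM in NAPH (13.4 to 27.6) and 65.2 CPM in Control (32.5 to 117, 11 UMIs), the reverse of its order in AT2 cells. Gclm had 89.95 CPM in NAPH and 77.0 CPM in Control, Gsr 120.5 CPM in NAPH and 113 CPM in Control, and Txnrd1 59.4 CPM in NAPH and 59.3 CPM in Control, all with overlapping intervals.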
